A study of Homo sapiens with 4 samples.

Results

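Serine synthesis and folate one-carbon metabolism were followed through 9 genes, namely PHGDH, PSAT1, PSPH, SHMT1, SHMT2, MTHFD1, MTHFD2, MTHFD1L and ALDH1L2. The genes were taken by symbol as the enzymes of the pathway, with earlier results of these data known. All 9 were found among the 26364 genes listed in each sample. The cells were BE(2)C, a human neuroblastoma line with amplified MYCN, and RNA-seq was done on 2 groups of 2 samples. Ctrl cells received a control siRNA and MYCN KD cells an siRNA against MYCN, with the same transfection reagent in both groups. The labels give 80 nM siRNA for 6 hours and RNA extraction on the next day, while the methods of the study give a lower concentration. Both groups are 1 cell line in culture, and the labels do not say that replicates came from separate transfections, so the p-values measure only the spread between these samples. Expression is given as RPKM (reads per kilobase of exon, scaled to the reads of the sample), which the authors calculated from normalized read counts and which allows levels of different genes to be compared per length.

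Cells make serine from the glycolytic intermediate 3-phosphoglycerate through PHGDH, PSAT1 and PSPH. Serine hydroxymethyltransferases then move a carbon unit from serine to tetrahydrofolate and leave glycine. In mitochondria the unit is oxidised by the MTHFD2 family and released as formate by MTHFD1L, and in the cytosol MTHFD1 returns formate to the folate pool for purine and thymidylate synthesis. MYC family proteins and ATF4 are known regulators of these genes, and MTHFD2 is known as an enzyme of embryonic and tumour cells that most adult tissues express weakly.

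The RPKM of MYCN was 1068 and 1073 in the Ctrl samples and 720.2 and 718 in the MYCN KD samples, so that 67.2% of the Ctrl level remained. Its log2 fold change was -0.57 with a standard error of 0.029 (limma, adjusted p = 0.00361). Totals recovered from the RPKM values were 31976939 to 34142988 normalized counts in Ctrl and 29055819 to 30941778 in MYCN KD; since the authors normalized before calculating RPKM, these are not numbers of sequenced reads. All 10 neuroblastoma markers were above the filter. Markers of other cell types were mixed: PTPRC was at or below 0.00464 RPKM, SOX10 at or below 0.0722 and COL1A2 at or below 0.0254, while LUM was at 6.64 to 8.19 RPKM over all samples and PDGFRB at 10.1 to 11.8. DCN was at 4.58 and 5.52 RPKM with control siRNA and 9.33 and 7.78 after knockdown, and S100B at 4.05 and 3.86 against 6.97 and 7.29. Of the neuroblastoma markers 5 were called higher and 2 lower, and their summed RPKM was 3256 to 3569 in Ctrl and 4504 to 4935 in MYCN KD. Of the 8 fibroblast markers 5 were tested and 4 called higher, of the 6 leukocyte markers 2 were tested and 1 called higher, and of the 5 Schwann cell markers 2 were tested and both called higher. Over all 11411 tested genes, 25.3% were called higher and 22.8% lower. The leukocyte sum was 5.04 to 6.07 in Ctrl and 11 to 13.3 in MYCN KD, most of it CD68. The fibroblast sum was 233.1 to 239.1 and 276.8 to 283.6, most of it THY1. The Schwann cell sum was 4.87 to 5.30 and 8.93 to 9.69. The part of these shifts in the results was not tested. In these bulk samples, fewer cells of a type and less RNA per cell cannot be told apart.

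Promoter sequences are shown for the 4 genes in which a motif linked to these regulators was found, because the genes changed together. MYC and MYCN bind the E-box CACGTG and, less strongly, its variant CACGCG, and TTGCATC is the core of an element bound by ATF4 with its C/EBP partners. RefSeq windows of 250 bases before to 50 bases after the annotated start (GRCh38.p14) were held for 6 of the 9 genes and searched on both strands. None was held for PSPH, SHMT2 and ALDH1L2. The windows were placed in GRCh37 by exact match, and capitals mark the motifs, with CACGCG and TTGCATC read as CGCGTG and GATGCAA on the other strand. MTHFD1 is shown at chr14:64854821-64855120 on the plus strand, MTHFD1L at chr6:151187372-151187671 on the plus strand, PSAT1 at chr9:80911791-80912090 on the plus strand and MTHFD2 at chr2:74425492-74425791 on the plus strand.
MTHFD1: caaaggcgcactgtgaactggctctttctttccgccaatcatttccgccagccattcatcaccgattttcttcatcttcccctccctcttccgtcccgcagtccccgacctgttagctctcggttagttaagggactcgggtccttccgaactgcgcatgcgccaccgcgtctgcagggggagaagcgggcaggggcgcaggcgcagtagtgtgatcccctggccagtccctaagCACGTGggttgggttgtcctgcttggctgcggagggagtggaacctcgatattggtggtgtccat
MTHFD1L: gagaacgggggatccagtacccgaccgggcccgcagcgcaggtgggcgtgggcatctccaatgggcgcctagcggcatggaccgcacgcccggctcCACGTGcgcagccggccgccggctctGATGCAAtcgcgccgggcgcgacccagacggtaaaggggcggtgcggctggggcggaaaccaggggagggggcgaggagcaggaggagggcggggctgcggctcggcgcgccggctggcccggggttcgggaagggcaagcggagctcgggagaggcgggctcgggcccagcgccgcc
PSAT1: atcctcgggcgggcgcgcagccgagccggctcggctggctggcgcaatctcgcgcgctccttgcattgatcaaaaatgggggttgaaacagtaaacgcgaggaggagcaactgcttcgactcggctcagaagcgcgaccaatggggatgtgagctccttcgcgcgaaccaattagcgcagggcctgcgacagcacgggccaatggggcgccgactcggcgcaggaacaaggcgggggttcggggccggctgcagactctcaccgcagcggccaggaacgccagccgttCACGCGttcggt
MTHFD2: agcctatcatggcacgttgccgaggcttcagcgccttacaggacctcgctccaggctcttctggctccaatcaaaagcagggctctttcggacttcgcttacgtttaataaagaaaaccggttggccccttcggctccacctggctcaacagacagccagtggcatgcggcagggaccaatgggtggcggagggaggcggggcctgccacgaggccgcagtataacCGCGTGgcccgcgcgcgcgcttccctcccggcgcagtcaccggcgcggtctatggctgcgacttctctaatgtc

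In MTHFD1 the E-box CACGTG lay from base -15 to base -10 relative to the start. In MTHFD1L the E-box was at -154 to -149, and TTGCATC followed on the minus strand at -128 to -122. MTHFD1L had 4 windows, of which windows 2 and 3 overlap the one shown and hold the same sites, and the other held none. The positions of these sites depend on the annotated start. In window 2 the E-box lay at -1 to 5 and TTGCATC at 26 to 32. In window 3 they lay at -115 to -110 and -89 to -83. PSAT1 carried CACGCG at 39 to 44 bases after the start, and MTHFD2 carried it on the minus strand at -24 to -19. No motif was found in the windows of PHGDH (chr1:120254307-120254606, plus strand) or SHMT1 (chr17:18266815-18267114, minus strand). Over all 35116 windows, 7.26% held CACGTG, 11.4% held CACGCG and 2.40% held TTGCATC. Over the 8489 tested genes with a window the shares were 13.2%, 23.8% and 2.17%. These matches are letters in a window and not measured binding sites.

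All 9 genes were lower after MYCN knockdown, with 38.0% (PSAT1) to 75.6% (PSPH) of the Ctrl mean remaining. Each passed the test across all genes (limma on log2 of RPKM plus 1, adjusted p under 0.05), against 22.8% of the 11411 tested genes that were called lower and 25.3% that were called higher. In each of the 9 genes the MYCN KD samples also lay wholly below the Ctrl samples, which was the case for 35.8% of tested genes, while 40.4% of tested genes lay wholly above. The median log2 fold change of the 9 genes was -0.745, and that of all tested genes was 0.026. Since the 9 genes were chosen with earlier results of these data known, these comparisons are descriptions and not a test of the set. The summed RPKM of the 9 genes was 695.2 and 686.2 in the Ctrl samples, against 383.7 and 389.7 in the MYCN KD samples, a level of 56.0%. With 2 samples against 2, an exact permutation test of a single gene cannot go below p = 0.3333, so each call rests on the spread that limma shares between genes. The values correspond to 527 (ALDH1L2 in MYCN KD replicate 2) to 15519 normalized counts (PHGDH in Ctrl replicate 1), from which the counting error of the sequenced reads cannot be read.

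**Figure D1:**
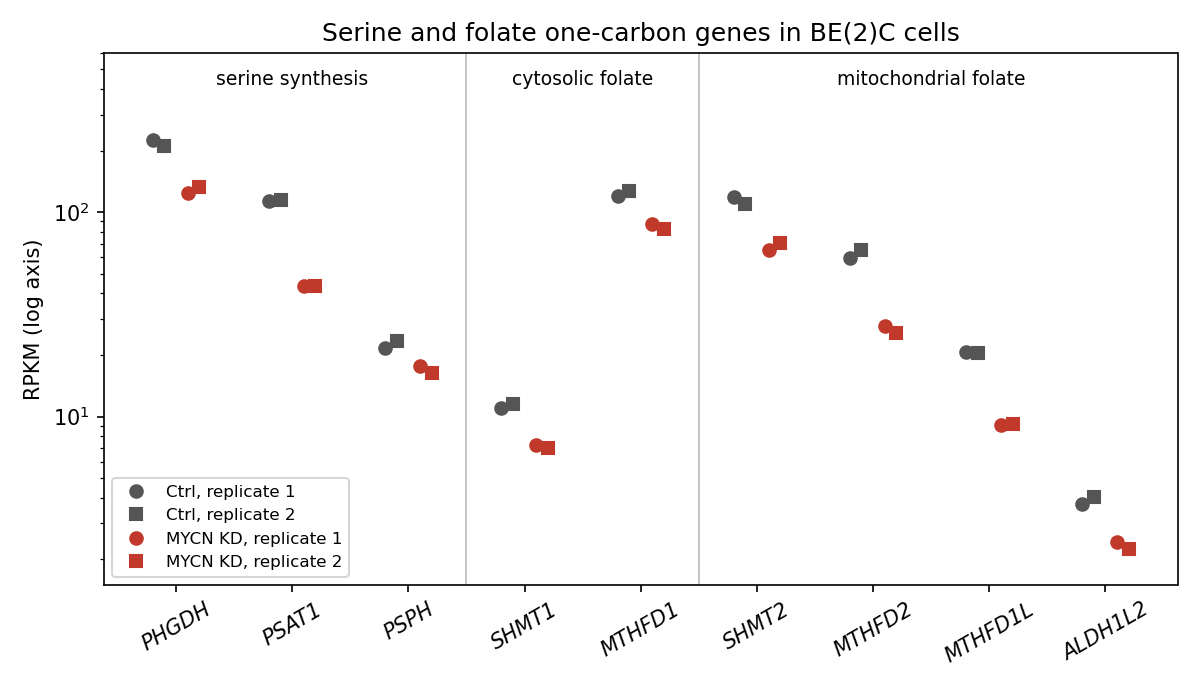
RPKM of the 9 genes in each sample on a log axis, by role in the pathway, with Ctrl in grey and MYCN KD in red, circles for replicate 1 and squares for replicate 2. Both MYCN KD points lie below both Ctrl points for every gene, with the widest gap at PSAT1 (38.0% of Ctrl) and the narrowest at PSPH (75.6%).

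The 3 enzymes of serine synthesis fell to different extents. PHGDH, which takes 3-phosphoglycerate into the serine pathway, lies on chromosome 1 (GRCh37, 120191034 to 120286841, plus strand, 12 exons). It was measured at 225.6 and 211.1 RPKM in the Ctrl samples, against 124.0 and 132.6 RPKM in the MYCN KD samples. It was the highest of the 9 genes in every sample and stood above 97.4% of tested genes in Ctrl and 95% in MYCN KD. Its mean went from 218.3 ± 10.3 to 128.3 ± 6.02 (SD, n = 2 each), a log2 fold change of -0.76 with a standard error of 0.059 (limma, adjusted p = 0.00523).

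PSAT1, the aminotransferase of the second step, lies on chromosome 9 (80912041 to 80945009, plus strand, 9 exons). Its RPKM was 113.8 and 114.5 in the Ctrl samples, against 43.4 and 43.3 in the MYCN KD samples. The replicates of each group were nearly equal after the authors' normalization, which may have removed spread between them, and 38.0% of the Ctrl level remained. The log2 fold change was -1.38 with a standard error of 0.031 (limma, adjusted p = 0.00359). Of all tested genes, 15 (0.131%) had a lower fold change. The values correspond to 8768 and 8260 normalized counts in Ctrl and 2845 and 3021 in MYCN KD.

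PSPH, the phosphatase that releases serine, lies on chromosome 7 (56078744 to 56119297, minus strand, 8 exons). It was at 21.6 and 23.3 RPKM in the Ctrl samples, against 17.6 and 16.3 RPKM in the MYCN KD samples. The groups did not overlap, but the log2 fold change was the smallest of the 9 genes. It fell by 0.38 on the log2 scale with a standard error of 0.066 (limma, adjusted p = 0.0205), and 15.5% of tested genes fell by more. The RPKM summed over the 3 enzymes was 361.0 and 348.9 in the Ctrl samples, against 185.0 and 192.2 in the MYCN KD samples, or 53.1%, most of which was PHGDH and PSAT1.

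The cytosolic enzymes SHMT1 and MTHFD1 fell to 63.4% and 68.9% of their Ctrl level. SHMT1, the cytosolic serine hydroxymethyltransferase, lies on chromosome 17 (18231174 to 18266877, minus strand, 12 exons) and was at 11.04 and 11.5 RPKM in the Ctrl samples, against 7.28 and 7.01 RPKM in the MYCN KD samples. The groups did not overlap. It fell by 0.59 on the log2 scale with a standard error of 0.046 (limma, adjusted p = 0.00538).

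MTHFD1, which holds 3 folate activities in 1 cytosolic protein, lies on chromosome 14 (64854749 to 64930175, plus strand, 28 exons). Its RPKM was 120.2 and 126.7 in the Ctrl samples, against 87.1 and 82.9 in the MYCN KD samples. The groups did not overlap, and it stood above 92.1% of tested genes in MYCN KD, against 94.5% in Ctrl. On the log2 scale it fell by 0.53 with a standard error of 0.049 (limma, adjusted p = 0.00664). The summed RPKM of SHMT1 and MTHFD1 went from 131.2 and 138.2 to 94.4 and 89.9, or 68.4%.

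Among the 4 mitochondrial enzymes, MTHFD2 and MTHFD1L fell to under 50% of the Ctrl level. SHMT2, the mitochondrial serine hydroxymethyltransferase, lies on chromosome 12 (57623356 to 57628718, plus strand, 12 exons) and was at 119.1 and 109.4 RPKM in the Ctrl samples, against 64.9 and 70.6 RPKM in the MYCN KD samples. The replicates of each group lay within 10 RPKM of each other and the groups were clearly apart, with 59.3% remaining. On the log2 scale it fell by 0.745 with a standard error of 0.071 (limma, adjusted p = 0.00696).

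MTHFD2, the dehydrogenase and cyclohydrolase of the mitochondrial arm, lies on chromosome 2 (74413299 to 74444692, plus strand, 8 exons). Its RPKM was 59.6 and 65.3 in the Ctrl samples, against 27.8 and 25.5 in the MYCN KD samples. Of its Ctrl level 42.7% remained, and it went from above 88.3% of tested genes to above 74.4%. The log2 fold change of -1.20, with a standard error of 0.074 (limma, adjusted p = 0.00422), was undercut by 60 tested genes (0.526%).

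MTHFD1L, which releases formate from the mitochondrial folate pool, lies on chromosome 6 (151186815 to 151423023, plus strand, 28 exons). It was at 20.7 and 20.5 RPKM in the Ctrl samples, against 9.11 and 9.24 RPKM in the MYCN KD samples. The replicates of each group were nearly equal after the same normalization, and 44.6% of the Ctrl level remained. On the log2 scale it fell by 1.085 with a standard error of 0.037 (limma, adjusted p = 0.00359), and 0.894% of tested genes fell by more.

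ALDH1L2, which oxidises the mitochondrial carbon unit to carbon dioxide, lies on chromosome 12 (105413562 to 105501421, minus strand, 23 exons). It had the lowest level of the 9 genes, 3.72 and 4.02 RPKM in the Ctrl samples, against 2.43 and 2.26 RPKM in the MYCN KD samples. The groups did not overlap, and 60.5% remained. The log2 fold change was -0.54 with a standard error of 0.058 (limma, adjusted p = 0.00822), on a scale that understates the change of a gene at this level. The summed RPKM of the 4 mitochondrial enzymes was 203.1 and 199.2 in the Ctrl samples, against 104.3 and 107.6 in the MYCN KD samples, or 52.7%.

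The strand setting of the read counting is not given in the sources used here, and exons of 4 of the genes overlap a listed gene on the other strand. These overlaps are of GENCODE exons, while the authors counted RefSeq genes. MTHFD2 shares 1324 bases with SLC4A5, which was at 0.9754 and 1.10 RPKM in the Ctrl samples, against 0.570 and 0.510 RPKM in the MYCN KD samples. The canonical GENCODE transcript of MTHFD2 has 4403 bases, but the exon length recovered from the RPKM values was 2285. The bases shared with SLC4A5 may therefore lie outside the exons that were counted. SHMT1 shares 184 bases with SMCR8 (8.03 to 8.39 RPKM), MTHFD1 shares 178 bases with ZBTB25 (2.79 to 3.01 RPKM) and SHMT2 shares 33 bases with NDUFA4L2 (1.21 to 1.69 RPKM). GENCODE names 7 pseudogenes of MTHFD2, 4 of PSAT1 and 1 each of PSPH, SHMT1 and MTHFD1, and how reads that match several copies were counted is not given in the sources used here.

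Ordered by RPKM in Ctrl, PHGDH came first and MTHFD1 second. SHMT2 and PSAT1 followed with overlapping values (109.4 to 119.1 and 113.8 to 114.5), and MTHFD2, PSPH, MTHFD1L, SHMT1 and ALDH1L2 came after them with no overlap between neighbours. In MYCN KD the order was the same and no neighbours overlapped, since SHMT2 (64.9 to 70.6) and PSAT1 (43.3 to 43.4) had separated. Ordered by the share of the Ctrl level that remained, with ranges over the 4 pairings of a MYCN KD with a Ctrl sample, PSAT1 was lowest at 37.8% to 38.1%. MTHFD2 at 39.1% to 46.6% and MTHFD1L at 43.98% to 45.1% overlapped each other and lay apart from PSAT1 below and from PHGDH at 55.0% to 62.8% above. From PHGDH upward through SHMT2, ALDH1L2, SHMT1, MTHFD1 and PSPH every neighbour overlapped the next.

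**Figure D2:**
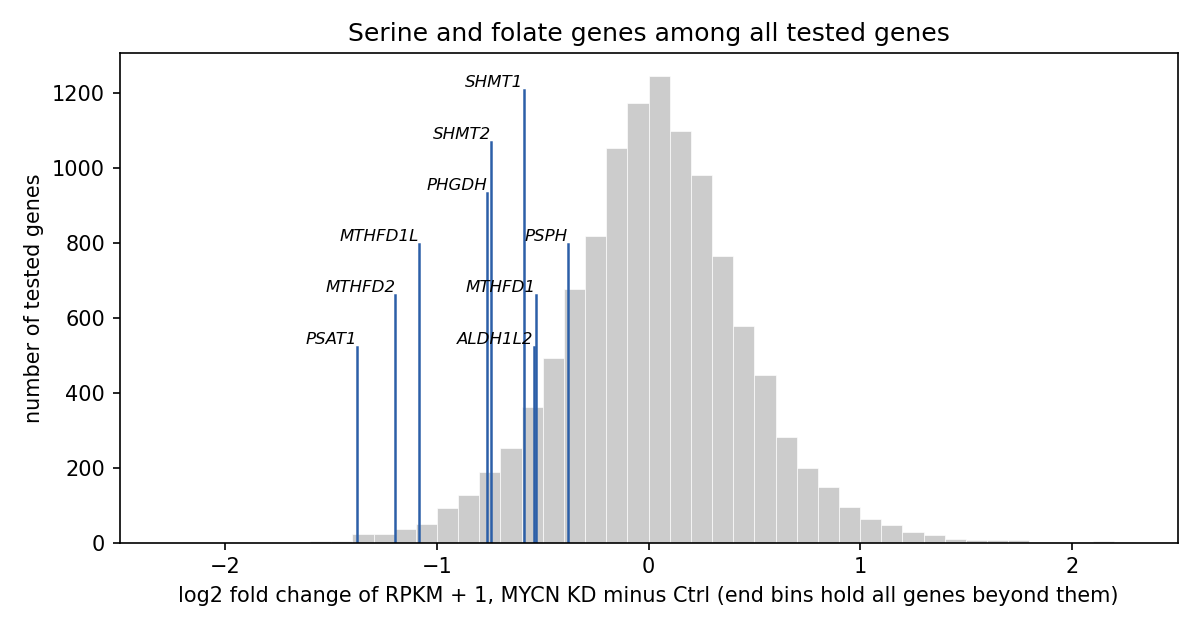
Number of tested genes (vertical axis) by log2 fold change of RPKM + 1, MYCN KD minus Ctrl, in grey, with a blue line at the fold change of each of the 9 genes; line heights only separate the names. All 9 lines lie left of 0, from -1.38 (PSAT1) to -0.38 (PSPH), while the median of the 11411 tested genes is 0.026.

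The balance between related enzymes was compared within each sample. The ratio of SHMT2 to SHMT1, the mitochondrial to the cytosolic form of the same reaction, was 10.8 and 9.51 in the Ctrl samples, against 8.92 and 10.1 in the MYCN KD samples. These values overlapped, and the difference in log2(RPKM + 1) between the pair moved by -0.15 (exact permutation test, two-sided, p = 0.667). The ratio of MTHFD1L to MTHFD1 was 0.172 and 0.162 in the Ctrl samples, against 0.105 and 0.112 in the MYCN KD samples. Both MYCN KD ratios were lower than both Ctrl ratios, with a shift of -0.55 on the log2 scale (exact permutation test, p = 0.333, the smallest this design allows).

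MTHFD2L, the paralog of MTHFD2 found in adult tissues, was at 1.39 and 1.48 RPKM in the Ctrl samples, against 1.39 and 1.30 RPKM in the MYCN KD samples. Its log2 fold change was -0.06 with a standard error of 0.045 and did not pass the test (limma, adjusted p = 0.358). After quantile normalization it passed (-0.18, limma, adjusted p = 0.0257). It also passed with the crossed replicate block (limma, adjusted p = 0.00219). This block pairs Ctrl replicate 1 with MYCN KD replicate 2 and was added after seeing the data. Under it 5262 of the 11411 tested genes were called lower and 5910 higher, so a pass there says little about a single gene. The ratio of MTHFD2 to MTHFD2L was 42.8 and 43.95 in the Ctrl samples, against 20.1 and 19.6 in the MYCN KD samples, a shift of -1.14 on the log2 scale (exact permutation test, p = 0.333, again the smallest possible). ALDH1L1, the cytosolic counterpart of ALDH1L2, was below the filter at 0.0184 to 0.0417 RPKM.

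**Figure D3:**
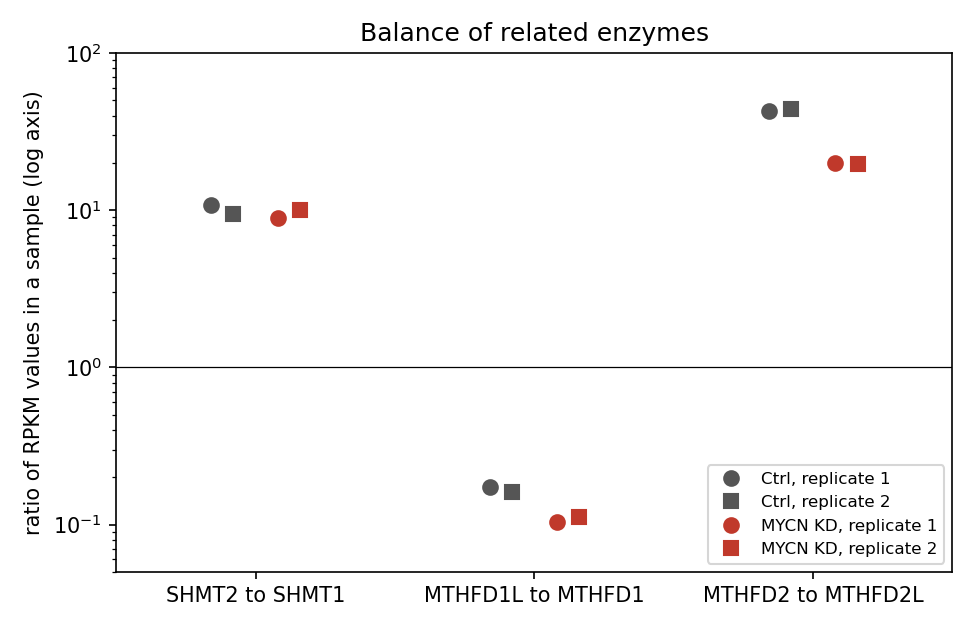
Ratio of RPKM values within a sample, on a log axis, for 3 pairs of related enzymes, with Ctrl in grey and MYCN KD in red, circles for replicate 1 and squares for replicate 2. The ratio of SHMT2 to SHMT1 overlaps between groups (8.92 to 10.8), while that of MTHFD2 to MTHFD2L goes from 42.8 and 43.95 to 20.1 and 19.6.

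Around the 9 genes, 51 further genes of folate, glycine, methionine and serine handling were examined, of which 33 were above the filter. Of these, 14 (42.4%) were lower and 3 (9.09%) were higher in MYCN KD, against 22.8% and 25.3% of all tested genes, and 16 did not pass. Their median log2 fold change was -0.273, and their summed RPKM was 1154 and 1157 in the Ctrl samples, against 858.5 and 850.9 in the MYCN KD samples, or 74.0%.

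Folate uptake and transport were represented by 4 tested genes, of which 2 fell. SLC19A1, the reduced folate carrier of the plasma membrane, was at 35.8 and 33.4 RPKM in the Ctrl samples, against 17.8 and 19.0 RPKM in the MYCN KD samples, with a log2 fold change of -0.88 and a standard error of 0.061 (limma, adjusted p = 0.00463). SLC25A32, which carries folate into mitochondria, went from 12.9 and 14.8 RPKM to 9.55 and 8.35 RPKM (-0.58, limma, adjusted p = 0.0226). The folate carriers of both membranes were thus lower together with the enzymes. FPGS, which adds the glutamate tail that retains folate in the cell and was chosen after its values were seen, was at 34.9 and 30.4 RPKM against 23.8 and 27.3 RPKM and did not pass (-0.34, limma, adjusted p = 0.0724).

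Of the other folate enzymes, 8 were tested, 1 fell and 2 rose. TYMS, which makes thymidylate from a folate carbon unit, was at 33.5 and 35.7 RPKM in the Ctrl samples, against 24.4 and 22.9 RPKM in the MYCN KD samples (log2 fold change -0.53, standard error 0.057, limma, adjusted p = 0.00831). SARDH, the mitochondrial sarcosine dehydrogenase, went from 2.59 and 2.53 RPKM to 3.49 and 3.57 RPKM (0.35, limma, adjusted p = 0.00927). The call of SARDH did not hold without Ctrl replicate 2.

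The methionine cycle uses folate carbon to remake methionine. Of the 7 tested genes in its list, 4 fell (57.1%, against 22.8% of all tested genes) and none rose. The 7 include the AHCY-like genes AHCYL1 and AHCYL2, which did not pass. AHCY, which clears S-adenosylhomocysteine, was at 330.5 and 322.8 RPKM in the Ctrl samples, against 189.2 and 193.9 RPKM in the MYCN KD samples (log2 fold change -0.77, standard error 0.034, limma, adjusted p = 0.00359). MAT2B, the regulatory subunit of S-adenosylmethionine synthetase, fell from 20.9 and 22.1 RPKM to 10.3 and 9.73 RPKM (-1.03, limma, adjusted p = 0.00365). Its catalytic partner MAT2A was at 90.4 and 96.6 RPKM against 80.9 and 75.9 RPKM (-0.25, limma, adjusted p = 0.0390), a call lost without Ctrl replicate 2 or MYCN KD replicate 2, under both other scalings and with no filter on low values (adjusted p = 0.0583). MTRR, which reactivates methionine synthase, went from 11.6 and 13.8 RPKM to 7.75 and 6.58 RPKM (-0.74, limma, adjusted p = 0.0191). MTR, methionine synthase itself, was chosen after its values were seen. It was at 6.02 and 7.01 RPKM against 6.74 and 5.82 RPKM and did not pass (-0.05, limma, adjusted p = 0.745).

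Transsulfuration turns homocysteine and serine into cysteine. In the list of transsulfuration and serine breakdown genes, 2 of 3 tested genes fell (66.7%, against 22.8% of all tested genes). CBS, the enzyme that joins serine to homocysteine, was at 76.5 and 72.6 RPKM in the Ctrl samples, against 45.9 and 48.4 RPKM in the MYCN KD samples (-0.65, limma, adjusted p = 0.00529). CTH, the next enzyme, was low, at 1.29 and 1.34 RPKM against 0.740 and 0.710 RPKM (-0.42, limma, adjusted p = 0.00633). The log2 scale understates its change at this level, as 55.1% of its Ctrl mean remained. SDSL, listed for serine breakdown, was chosen after its values were seen. It was at 7.79 and 6.46 RPKM against 5.05 and 6.06 RPKM and did not pass (-0.31, limma, adjusted p = 0.131). Of the glycine cleavage system, 2 of 4 genes were tested. GCSH, the lipoyl carrier protein of the system, fell from 10.4 and 12.3 RPKM to 6.56 and 5.57 RPKM (-0.81, limma, adjusted p = 0.0155). DLD, the dihydrolipoamide dehydrogenase that the system shares with other mitochondrial complexes and that was chosen after its values were seen, was at 28.7 and 31.0 RPKM against 36.1 and 33.5 RPKM, above Ctrl in both samples, and did not pass (0.21, limma, adjusted p = 0.0712). The summed RPKM of the 4 genes was at 99.4% of Ctrl, but most of it was DLD, so the sum says little about the other genes. GLDC (0.792 to 1.05 RPKM) and AMT (0.0426 to 0.161 RPKM) were below the filter.

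Among serine and glycine transporters, 4 of 9 tested genes fell and 1 rose. These are 44.4% and 11.1%, against 22.8% and 25.3% of all tested genes. SFXN3, a sideroflexin of the mitochondrial membrane, was at 16.3 and 16.0 RPKM in the Ctrl samples, against 26.5 and 26.9 RPKM in the MYCN KD samples, that is 165.4% of Ctrl (log2 fold change 0.69, standard error 0.036, limma, adjusted p = 0.00365). Its relative SFXN2 changed in the opposite direction, from 7.80 and 7.69 RPKM to 4.84 and 4.91 RPKM (-0.57, limma, adjusted p = 0.00458). SLC1A5, a plasma membrane carrier of small neutral amino acids, was at 192.8 and 175.6 RPKM against 127.3 and 139.5 RPKM (-0.46, limma, adjusted p = 0.0193). SLC25A38, a mitochondrial glycine carrier, was at 18.0 and 17.1 RPKM against 13.95 and 14.7 RPKM (-0.27, limma, adjusted p = 0.0268), and its call was lost when any 1 of the 4 samples was left out.

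**Figure D4:**
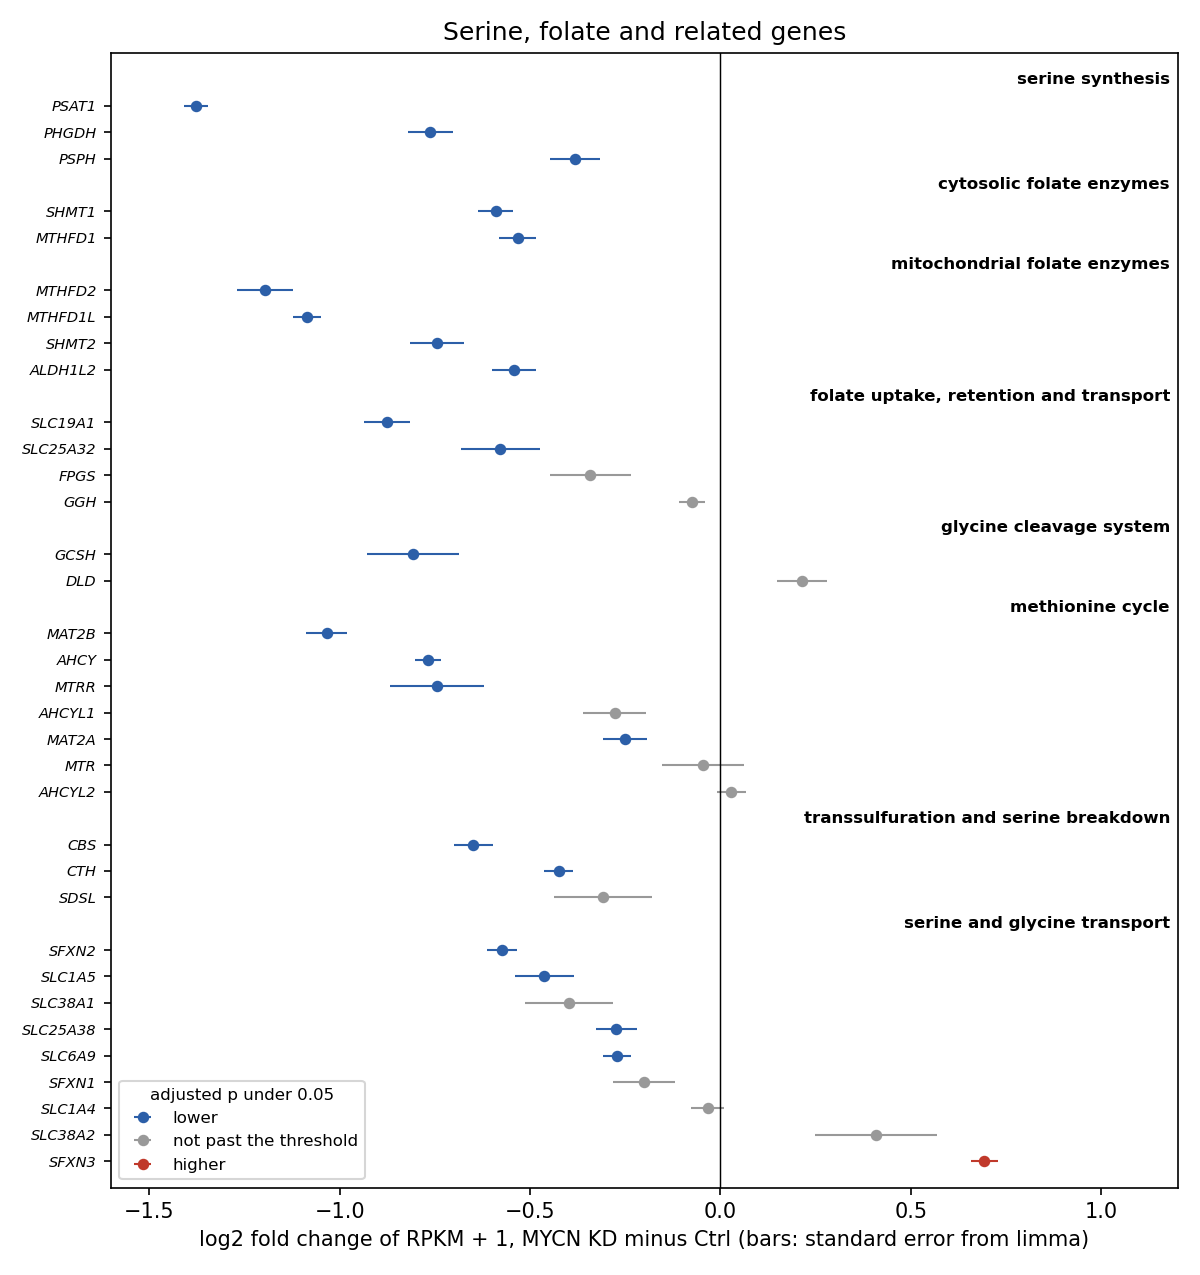
Log2 fold change of RPKM + 1 (MYCN KD minus Ctrl) of the 9 genes and of tested genes of related lists, with bars for the limma standard error. The related lists are folate transport, glycine cleavage, the methionine cycle, transsulfuration and serine breakdown, and serine and glycine transport. Blue marks genes called lower, red genes called higher and grey genes not past the threshold, and all 9 genes of the serine, cytosolic and mitochondrial lists are blue.

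Of the other regulators, ATF4, the transcription factor of the amino acid stress response, was at 254.9 and 253.8 RPKM in the Ctrl samples, against 189.0 and 190.0 RPKM in the MYCN KD samples. The groups did not overlap and 74.5% remained, with a log2 fold change of -0.42 and a standard error of 0.029 (limma, adjusted p = 0.00460). MYC, which shares its E-box with MYCN, was at 0.780 and 0.542 RPKM in the Ctrl samples, against 6.73 and 9.32 RPKM in the MYCN KD samples. The log2 fold change was 2.43 with a standard error of 0.18 (limma, adjusted p = 0.00497). The pseudocount of 1 understates the change of MYC at this level, as its mean RPKM in MYCN KD was 12.1 times that in Ctrl. MYC thus rose while MYCN and ATF4 fell, and the part of each in the changes of the 9 genes was not tested.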

How the data were processed

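RNA-seq of 4 BE(2)C samples, 2 Ctrl and 2 MYCN KD, was used. The authors aligned reads to hg19 (HISAT2 2.1.0 in the submitters' processing notes), counted RefSeq genes with featureCounts, used DESeq2 and RUVSeq to remove unwanted variation, and deposited RPKM values made from those normalized counts. The RUVSeq settings are not given in the sources used here. The steps before RPKM were not repeated, so spread that RUVSeq removed is missing from every error given.

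Log2 of RPKM plus a pseudocount of 1 was fitted without a block by limma 3.58.1 (lmFit, eBayes with trend; R 4.3.3) over the 11411 genes whose mean RPKM reached 1, and p-values were Benjamini-Hochberg adjusted over all of them (threshold 0.05, two-sided). Whole normalized counts were recovered for 19894 of 19908 genes above 0 (99.93%, within 0.001 counts), from totals set by 2280 small RNA genes; limma voom on these counts called 2585 genes lower and 2910 higher. The scripts were tested on simulated data. The 9 genes and all lists were chosen with earlier results of these data known. Named were the 9 genes, up to 4 genes per list with the largest change past the threshold, MYCN, MYC, ATF4, MTHFD2L and ALDH1L1. Other genes of the surrounding lists were named after their values were seen. Some genes of the surrounding lists that are in the counts are not reported here by name. Positions are from GENCODE 44 lifted to GRCh37. Alternatives were another pseudocount (0.1), no filter or a mean RPKM of 5, 2 other scalings, eBayes without trend, a replicate block and leaving out each sample. Limma voom and a crossed block were added after seeing the data. Python 3.11.15 with pandas 2.3.3 and scipy 1.17.1 was used.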

Additional observations from a re-analysis of the deposited data

How the results depend on the processing

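All 9 genes were lower in each of the 116 values computed under the alternatives. In the fits of all 4 samples, adjusted p reached at most 0.0451 (limma, PSPH after scaling to the same total, log2 fold change -0.32). The 116 values include fits that leave 1 sample in a group, whose p-values rest on spread borrowed from the other group and other genes. They also include the crossed replicate block, under which most tested genes were called. ALDH1L2 was not tested at a mean RPKM of at least 5, where 8 genes were called lower, and leaving out any 1 sample left all 9 lower. At that filter 1 of the surrounding pathway genes was called higher, and 1868 of all genes were. In the normalized values, same-numbered samples deviated in opposite directions. The deviations of Ctrl replicate 1 and MYCN KD replicate 1 from their group means had a correlation of -0.9845 over 11411 genes. These values had passed through RUVSeq, so the correlation does not show whether the replicates were paired when made. The samples do not vary independently between groups, and what this does to the p-values was not tested beyond the 2 blocked fits. With the replicate block all 9 genes were called lower, as were 1851 of all genes, with 2077 higher. With the crossed replicate block, 25 surrounding pathway genes were lower and 8 higher, and 5262 of all genes were lower and 5910 higher. Without each sample in turn, 2153 to 2429 of all genes were lower and 2460 to 2781 higher. Of the surrounding genes named, MAT2A, SLC25A38 and SARDH lost their call under the replicate block and when some samples were left out, and for these the cause was not tested.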

Other observations

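Among tested genes with a RefSeq promoter window, the E-box CACGTG was held by 18.8% of the 1940 genes called lower, 10.5% of the 2111 called higher and 12.0% of those not past the threshold. Read the other way, 32.5% of the 1119 tested genes with CACGTG were called lower and 19.7% higher, with a median log2 fold change of -0.07, against 21.4% and 25.6% of the 7370 without it, with a median of 0.04. The variant CACGCG stood in 29.2% of lower, 19.4% of higher and 23.5% of other genes. TTGCATC stood in 1.60%, 2.51% and 2.25%. These shares are descriptions without a test. Of the 6 serine and folate genes with a window, PHGDH and SHMT1, which held none of the 3 motifs, kept 58.8% and 63.4% of their Ctrl level. Of the 4 with a motif, PSAT1, MTHFD2 and MTHFD1L kept less (38.0%, 42.7% and 44.6%) and MTHFD1 more (68.9%). PSAT1 and MTHFD2 held only the variant CACGCG, and PSPH, SHMT2 and ALDH1L2 had no window. A link between motifs and the size of the fall was not tested.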
